A study of Mus musculus with 9 samples.

Results

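Obacunone, a limonoid of citrus fruit, was compared with no obacunone in mouse brain microvascular endothelial cells that had lost oxygen and glucose. The genes described are the 544 with a mean of at least 1 FPKM (fragments counted on a gene, divided by its length and by the fragments of the library) over the 9 libraries of the study, of 675 genes in the deposited table. A further 36 genes above that floor have names given to predicted genes (Gm or LOC with a number, or Rik) and were tested but not described, and 95 genes lay under the floor. The libraries compared were 6 of 9: OGD+Oba at 1, 3 and 6 h, from cells perfused with obacunone (3 µM) while without oxygen, glucose and fetal bovine serum, and OGD at 1, 3 and 6 h, from cells under the same deprivation with no agent named in the labels. Normoxia libraries of the same times serve as a further level. All cells are labelled wild type (WT) and as the cell line MBMECs. No label says that libraries came from separate cultures, each group held 1 library, and so no difference at a single time has a replicate check.

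Oxygen-glucose deprivation (OGD) is a culture model of ischemia, in which brain endothelial cells stabilise hypoxia-inducible factors, raise glucose uptake and glycolysis, and loosen the barrier they form between blood and brain. The title of the study sets obacunone against ischemic damage of that barrier and names signaling by MIF, a cytokine that binds the receptor CD74. The 7 genes of the MIF axis listed for this work were not analysed here. The table is a selection: in the authors' deposited table each gene had a ratio of 2 or more in size between the 6 h libraries of OGD and normoxia, 350 of them higher and 325 lower under OGD. What obacunone did to genes outside that selection was not analysed here, and the table cannot show it.

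Of 15 endothelial marker genes 1 was in the table, Flt1, under the floor, so the labelled cell type was not checked here. Among markers of other cell types the table held Tubb3, a neuronal tubulin, and Cldn4, an epithelial claudin, with obacunone differences of -0.31, 0.01 and -0.08 for Tubb3 and -0.04, -0.06 and -0.00 for Cldn4 at 1, 3 and 6 h (log2(FPKM + 1), OGD+Oba minus OGD). In a bulk culture, fewer cells of a type and less RNA per cell cannot be told apart. Sequencing depth is unknown, since no counts were used, and no counting interval was computed.

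The median size of the difference, on the log2(FPKM + 1) scale, was 0.16 at 1 h, 0.13 at 3 h and 0.10 at 6 h over the 544 genes, with standard deviations across genes of 0.31, 0.21 and 0.18. Normoxia libraries of different times lay further apart on the same scale, with median sizes of 0.32 between 3 and 1 h and 0.28 between 6 and 3 h. OGD and normoxia at 1 h, which are of one time, lay closer, with a median size of 0.12. Folds were counted on the log2(FPKM + 1) scale as well, where 2-fold is a difference of 1. At 1 h, 1 gene was at least 2-fold higher in OGD+Oba and 8 were at least 2-fold lower, where 0.862% and 2.07% of all 580 genes tested passed those limits. The counts were 1 higher and 1 lower at 3 h (0.517% and 0.69% of all genes tested), and 0 higher and 1 lower at 6 h (0.517% and 0.345%). Low genes past 2-fold in FPKM itself can lie under that limit, such as Mmp10 at 6 h, at 1.76 FPKM in OGD+Oba against 0.78 FPKM in OGD. Between normoxia libraries, 13 of the 544 genes passed 2-fold upward and 28 downward at 3 h against 1 h, and 4 upward and 12 downward at 6 h against 3 h. The listed genes were chosen on the 6 h libraries of OGD and normoxia. Differences that hold either library are thus not free of that choice. The differences shrank with level as well: among the 153 genes at 20 FPKM or more, the median sizes were 0.11, 0.10 and 0.07 at 1, 3 and 6 h, against 0.20, 0.17 and 0.13 among the 184 genes at 1 to 5 FPKM.

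**Figure D1:**
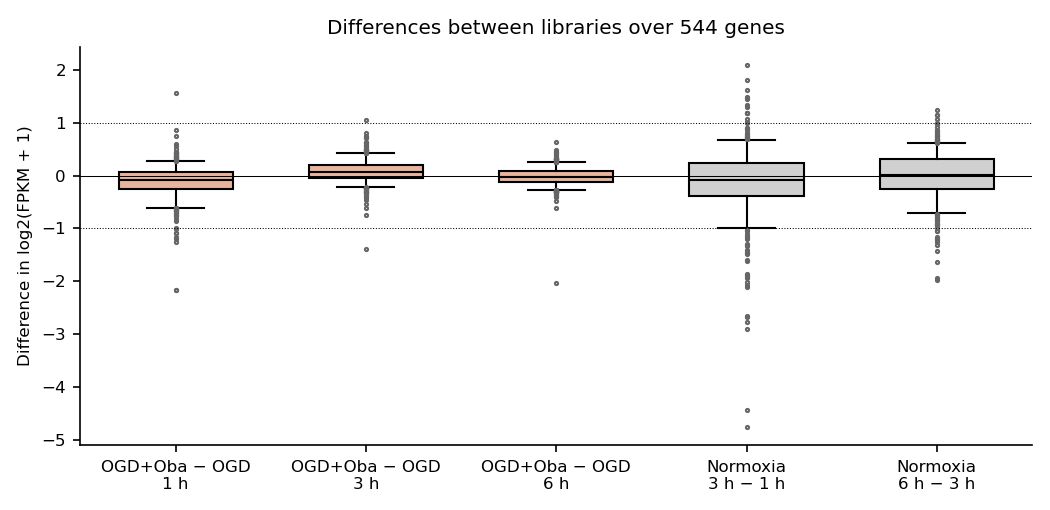
Difference in log2(FPKM + 1) between pairs of libraries over 544 genes (vertical axis), for OGD+Oba minus OGD at 1, 3 and 6 h (orange) and for normoxia at 3 h minus 1 h and at 6 h minus 3 h (grey). Boxes span the quartiles with the median as a line, whiskers reach the percentiles 5 and 95, points are single genes beyond them, and dotted lines mark 2-fold on that scale. The obacunone boxes are narrower than the normoxia boxes, and the one for 6 h is the narrowest.

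A difference common to the 3 times was sought with limma, in a fit on the 6 libraries with time and obacunone as terms. It called 0 of the 544 genes at a Benjamini-Hochberg adjusted p under 0.05, against 0.172% of all genes tested, a share that stands for 1 predicted gene. At an unadjusted p under 0.05 the fit had 11 of the 544 genes, 7 higher and 4 lower in OGD+Oba, against 3.62% of all genes tested; the lowest adjusted p was 0.470. Except where the libraries of 1 time were left out, the count of called genes was also 0 under each other setting. Those settings had 2 to 13 genes at an unadjusted p under 0.05. Each of the left-out fits called 2 genes: H3c14 and H2ac19 without 1 h, H3c14 and Ccl2 without 3 h, and H2ac19 and Hist1h2ao without 6 h. At an unadjusted p under 0.05 they had 10 genes without 1 h, 70 without 3 h (23 higher and 47 lower) and 7 without 6 h. A p above the threshold does not show that the arms act alike, and the intervals give the room left for a common difference. The 95% interval of the common difference had a median half-width of 0.29 on the log2(FPKM + 1) scale. On that scale it lay within 2-fold in both directions for 540 genes and within 1.5-fold for 507. It does not bound a difference at a single time: for Ogt it ran from -0.81 to 0.52, while the difference at 1 h was -1.10. P-values here measure the spread of single libraries about a common difference, not that of repeated cultures.

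Among the genes nearest to a common difference were a matrix protease and a growth factor that were higher in OGD+Oba at every time. Mmp10 encodes stromelysin-2, a secreted metalloprotease that cleaves matrix proteins and activates other metalloproteases (chr9:7502342-7510242, GRCm38.p6). It stood at 1.04, 1.91 and 1.76 FPKM in OGD+Oba at 1, 3 and 6 h, against 0.54, 1.18 and 0.78 FPKM in OGD, and at 1.71, 6.50 and 6.49 FPKM in normoxia. Each OGD+Oba library was above the OGD library of its time and below the normoxia library, although the arms overlap across times, and all 6 deprived values are low. The common difference was 0.49 ± 0.14 (SE, 3 pairs of libraries; limma, 95% interval 0.15 to 0.82, adjusted p = 0.470). Areg encodes amphiregulin, a ligand of the epidermal growth factor receptor (chr5:91139599-91148432). It stood at 6.00, 10.3 and 7.42 FPKM in OGD+Oba, against 5.14, 7.06 and 5.88 FPKM in OGD, and at 7.22, 5.05 and 1.67 FPKM in normoxia. Again each OGD+Oba library exceeded its OGD partner, most at 3 h, and the limma difference was 0.32 ± 0.12 (95% interval 0.03 to 0.61, adjusted p = 0.999).

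Txnip and Ccl2 were lower in OGD+Oba at every time. Txnip encodes an arrestin that restrains glucose uptake and binds thioredoxin, and its transcription follows glucose (chr3:96557957-96561857). It stood at 242, 37.7 and 36.7 FPKM in OGD+Oba, against 289, 43.8 and 43.7 FPKM in OGD, and at 676, 486 and 492 FPKM in normoxia. The gap between the deprived arms was -0.26, -0.21 and -0.24 at the 3 times (-0.12, -0.22 and -0.25 after the authors' scaling), while the level in both arms was far under normoxia at 3 and 6 h. Its common difference of -0.24 ± 0.06 (95% interval -0.39 to -0.09, limma adjusted p = 0.470) had the lowest unadjusted p of the genes described, 0.00677. Over 15 alternative settings it stayed between -0.25 and -0.20, with adjusted p-values from 0.153 to 0.9996 (0.997 after the authors' scaling). Ccl2 encodes the chemokine that draws monocytes (chr11:82035577-82037452). It stood at 7.17, 18.6 and 15.2 FPKM in OGD+Oba, against 11.9, 19.6 and 23.9 FPKM in OGD, and at 21.0, 48.8 and 12.1 FPKM in normoxia. The arms differed at 1 and 6 h and were within 0.07 of each other at 3 h on the log2(FPKM + 1) scale, and the common difference was -0.45 ± 0.13 (limma, 95% interval -0.77 to -0.14, adjusted p = 0.470). The limma value was -0.35 without the 1 h libraries, -0.64 without those of 3 h and -0.36 without those of 6 h, in fits with 1 residual degree of freedom. The fit without 3 h leaves out the time at which the arms were closest, so its larger value follows from that choice.

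The promoters of Mmp10 and Txnip are shown because these genes had the lowest unadjusted p in each direction among those with under 50% of their sequence shared with other genes. The sequences are the 150 bases before the start site from RefSeq (GRCm38.p6, + strand, 5′ to 3′), at chr9:7502192-7502341 for Mmp10 and chr3:96557807-96557956 for Txnip. Capitals mark the motif searched on both strands. In Mmp10 it is TGANTCA, the site of AP-1 factors such as FOS and JUN. In Txnip it is CACGAG, a form of the half-site of the carbohydrate response element.
Mmp10: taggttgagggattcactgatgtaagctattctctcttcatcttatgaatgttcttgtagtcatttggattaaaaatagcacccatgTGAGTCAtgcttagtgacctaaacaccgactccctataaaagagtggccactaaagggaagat
Txnip: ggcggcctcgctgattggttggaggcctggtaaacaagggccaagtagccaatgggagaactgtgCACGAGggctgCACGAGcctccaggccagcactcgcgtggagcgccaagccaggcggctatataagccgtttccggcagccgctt
The Mmp10 window held TGAGTCA once, starting 63 bases before the start site, and the Txnip window held CACGAG at 2 places, 85 and 74 bases before it. TGANTCA occurs in the same window of 4.24% of 32851 promoters and CACGAG in 3.43%, against 2.26% and 3.65% of 576 promoters of the genes described (454 genes matched). These shares count windows that hold the motif at all, and not a pair of copies as in Txnip. A match is a description of letters, and no binding was measured.

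**Figure D2:**
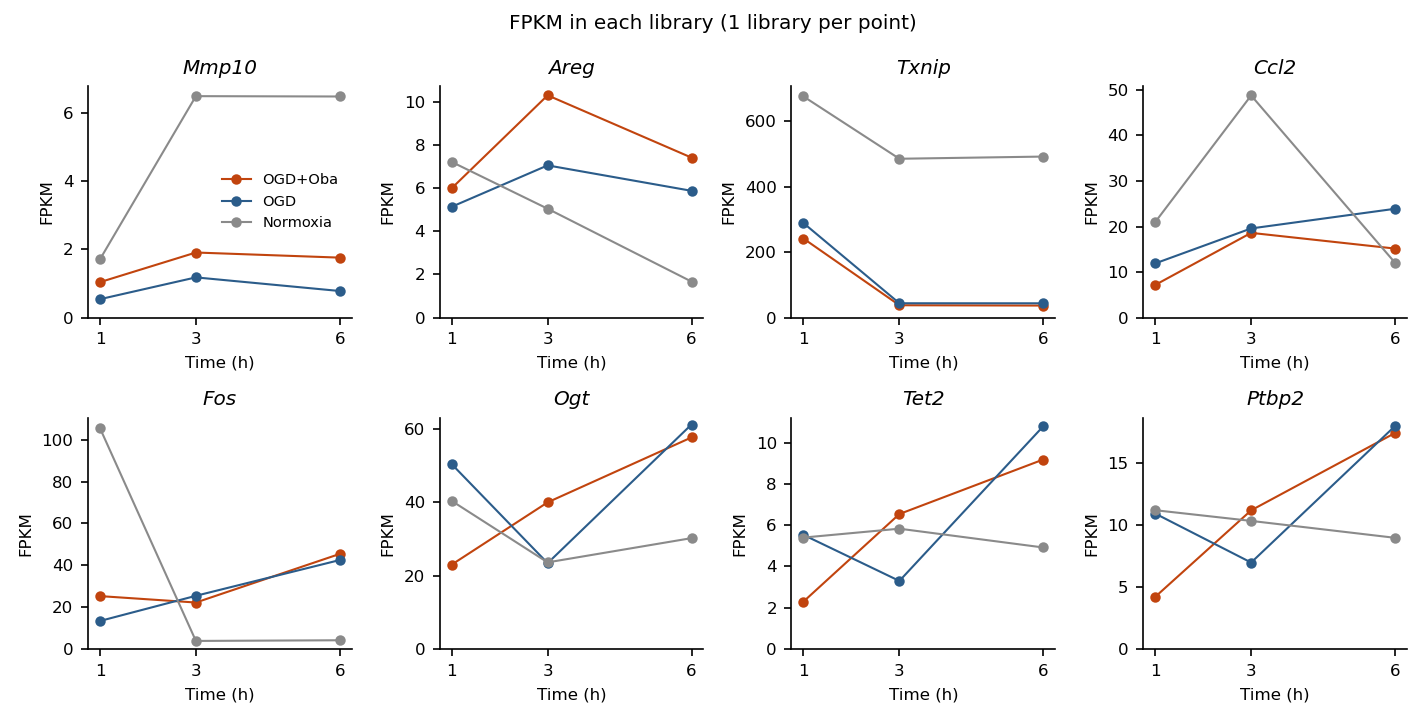
FPKM (vertical axis) against time in hours for 8 genes, with OGD+Oba in orange, OGD in blue and normoxia in grey, and 1 library per point. Mmp10 and Areg lie higher and Txnip and Ccl2 lower in OGD+Oba than in OGD at each time, Fos differs at 1 h, and Ogt, Tet2 and Ptbp2 are lower at 1 h and higher at 3 h.

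Of the tested NRF2 and dioxin receptor targets, genes of the oxidative and xenobiotic responses, 0 were called by limma. Sqstm1, the autophagy receptor p62 and a target of NRF2, stood at 333, 501 and 623 FPKM in OGD+Oba, against 298, 471 and 558 FPKM in OGD, and at 331, 405 and 284 FPKM in normoxia. OGD+Oba was the higher of the deprived arms at each time, by a common 0.14 ± 0.05 (limma, 95% interval 0.02 to 0.26, adjusted p = 0.999). Hmox1, the heme oxygenase that is the other NRF2 target above the floor, differed by 0.08, 0.10 and 0.05. Both NRF2 targets were thus above 0 at each time, but that list held 2 of 20 genes. Sqstm1 differed by 0.16, 0.09 and 0.16 at 1, 3 and 6 h. Median sizes were 0.16, 0.13 and 0.10 over all 544 genes, and 0.11, 0.10 and 0.07 among genes at 20 FPKM or more, where both targets lie. Cyp1a1, a cytochrome P450 and a target of the dioxin receptor, stood at 65.2, 122 and 199 FPKM in OGD+Oba, against 53.8, 124 and 156 FPKM in OGD, and at 52.6, 26.4 and 59.5 FPKM in normoxia. It was higher at 1 and 6 h and not at 3 h, and the common difference was 0.20 ± 0.08 (limma, 95% interval 0.004 to 0.39, adjusted p = 0.999). Tiparp, the second such target, had no one direction, with differences of -0.45, 0.45 and -0.06.

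In all, 81 of 544 genes kept one sign at the 3 times, 41 higher and 40 lower in OGD+Oba. Among them were 8 of the 11 genes with an unadjusted p under 0.05 by limma. That overlap is largely built in, since the same 3 differences give both the signs and the p. The split depends on scaling: after a shift to the scale of the authors' log2 ratios, which moved the 1 h differences by 0.14, it was 68 higher and 20 lower. Of the other genes named for a common sign, Sord, which encodes sorbitol dehydrogenase, differed by 0.33, 0.19 and 0.02, and Snai1, a repressor of epithelial genes, by 0.01, 0.37 and 0.31. Csf2, the growth factor GM-CSF, differed by -0.54, -0.13 and -0.08, from levels of 0.20, 1.70 and 4.26 FPKM in OGD+Oba against 0.75, 1.96 and 4.57 FPKM in OGD. Pnma3 differed by -0.47, -0.21 and -0.09, Snx11, a sorting nexin, by -0.37, -0.05 and -0.23, and Pced1b by -0.45, -0.03 and -0.13. The 95% interval of each of these 6 genes spans 0.

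**Figure D3:**
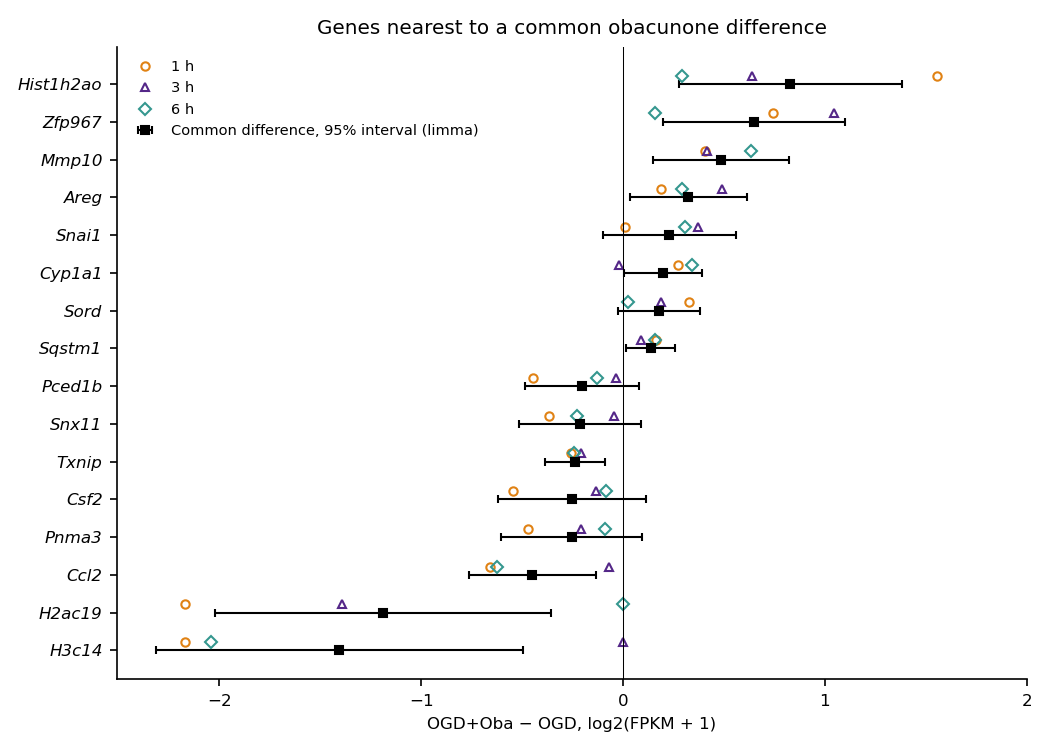
OGD+Oba minus OGD in log2(FPKM + 1) (horizontal axis) for 10 of the 11 genes with an unadjusted p under 0.05 and 6 further genes named for the same sign at all times. Open symbols are the single times, black squares are the common difference and bars its 95% interval from limma. Txnip has the tightest of the negative differences, and the widest intervals belong to H3c14 and H2ac19, which are listed at 0 in all OGD+Oba libraries.

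Differences at 1 h and at 3 h ran in opposite directions for many genes. Of the 30 genes at least 1.5-fold lower in OGD+Oba at 1 h (6.72% of all genes tested passed that limit, and 1.9% passed it upward, where 4 of 544 genes lay), 24 were above 0 at 3 h, against 339 of the other 514 genes, and 21 were below 0 at 6 h. At 3 h, 8 genes were at least 1.5-fold higher (2.76% of all genes tested) and 3 were lower (1.03%), and at 6 h 1 was higher (0.862%) and 2 were lower (0.69%). Over all 544 genes the most frequent order of signs was lower, higher, lower, with 183 genes (33.6%), and it was 134 after the authors' scaling. The shift of all genes depends on scaling: at 1 h 181 of 544 genes were above 0, 283 after median-ratio scaling and 307 after the authors' scaling, and at 3 h the counts were 363, 272 and 348. Of the 30 genes, 24 were above 0 at 3 h under either scaling, against 248 of the other 514 after median-ratio scaling and 324 after the authors' scaling. Across genes, the difference at 1 h had a Pearson correlation of -0.21 and a Spearman correlation of -0.39 with that at 3 h, and of 0.34 and 0.26 with that at 6 h. These describe 544 genes that share the same libraries at each time, and separate libraries between times.

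Ogt, Tet2, Ptbp2 and Far2 showed this reversal most. Ogt encodes the enzyme that attaches N-acetylglucosamine to nuclear and cytosolic proteins, using a sugar donor made from glucose (chrX:101640011-101684351). It stood at 23.0, 40.0 and 57.7 FPKM in OGD+Oba at 1, 3 and 6 h, against 50.4, 23.4 and 61.2 FPKM in OGD, and at 40.4, 23.6 and 30.3 FPKM in normoxia. The OGD+Oba library was the lowest of the 3 at 1 h and the highest at 3 h, and at 6 h both deprived libraries were about equal and above normoxia. Tet2, an enzyme that oxidises methylated cytosine and is a partner of OGT (chr3:133463677-133545136), stood at 2.30, 6.54 and 9.18 FPKM in OGD+Oba, against 5.53, 3.30 and 10.8 FPKM in OGD, and at 5.40, 5.83 and 4.92 FPKM in normoxia. Its order was that of Ogt at 1 h, while at 3 h the OGD library was the one that stood apart, below the other two. Ptbp2, a splicing repressor best known in neurons, stood at 4.20, 11.2 and 17.4 FPKM in OGD+Oba, against 10.9, 6.96 and 17.9 FPKM in OGD, and at 11.2, 10.3 and 8.95 FPKM in normoxia. Far2, which reduces fatty acyl groups to alcohols, stood at 0.93, 2.43 and 5.03 FPKM in OGD+Oba, against 3.64, 1.11 and 5.10 FPKM in OGD, and at 3.54, 1.95 and 2.03 FPKM in normoxia. In both genes the OGD+Oba library was alone at 1 h, below OGD and normoxia, and the deprived libraries differed by at most 0.04 at 6 h on the log2(FPKM + 1) scale. Their common differences were -0.15 for Ogt, -0.13 for Tet2, -0.21 for Ptbp2 and -0.19 for Far2, each with an adjusted p of 0.999 by limma.

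B3gat2, a glucuronyltransferase, was lower at 1 h and higher at 3 h as well, at -0.64, 0.62 and 0.01. The order lower, higher, lower also appeared in Clcn6, an endosomal chloride exchanger, at -0.87, 0.58 and -0.01, and in Rictor, a subunit of the kinase complex mTORC2, at -0.63, 0.43 and -0.13. H60b and Ulbp1, which encode ligands of the natural killer cell receptor NKG2D, were both among the 30 genes. H60b stood at 6.06, 6.06 and 5.46 FPKM in OGD+Oba, against 14.02, 4.72 and 6.86 FPKM in OGD, and at 13.7, 17.4 and 14.6 FPKM in normoxia. Ulbp1 stood at 18.8, 16.7 and 9.94 FPKM in OGD+Oba, against 32.2, 12.5 and 12.5 FPKM in OGD, and at 30.4, 39.7 and 32.6 FPKM in normoxia. For both, OGD was still at the level of normoxia at 1 h while OGD+Oba was not, and the later deprived libraries were all below normoxia.

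**Figure D4:**
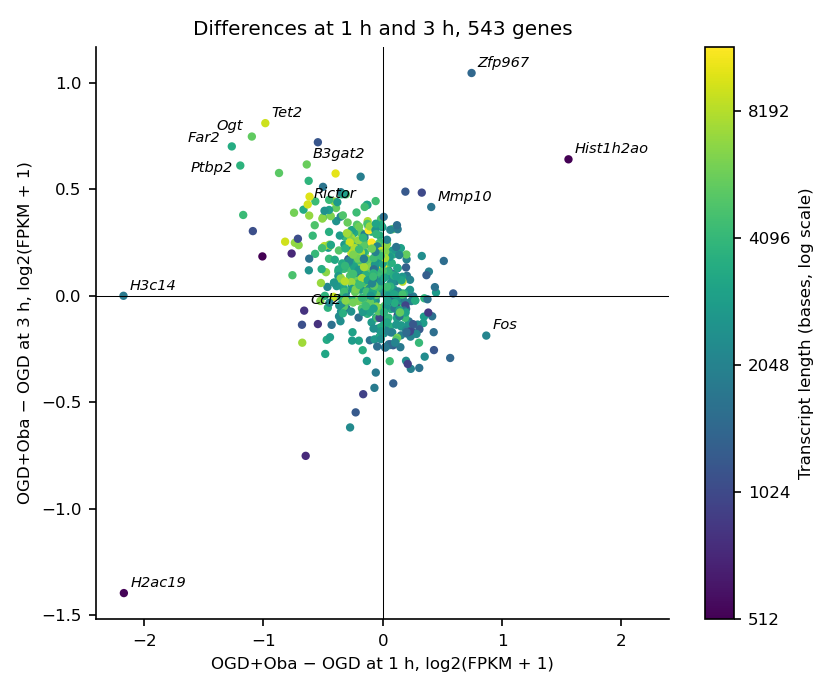
OGD+Oba minus OGD in log2(FPKM + 1) at 1 h (horizontal axis) and at 3 h (vertical axis) for 543 genes with an annotated transcript, coloured by transcript length in bases on a log scale. Long transcripts gather in the upper left, where Ogt, Tet2, B3gat2 and Rictor lie, and the histone genes H2ac19, H3c14 and Hist1h2ao lie far from the rest.

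These differences were ordered by transcript length, and the order turned round between 1 h and 3 h. Length here is that of the longest protein-coding transcript in the GENCODE M21 annotation, known for 543 genes. The genes were put into 5 equal bins of length. In the bin with the longest transcripts (5001 to 13125 bases, 109 genes) the median difference was -0.21 at 1 h, 0.19 at 3 h and -0.07 at 6 h. In the bin with the shortest (411 to 1993 bases, 109 genes) it was 0.07, -0.02 and 0.04. The Spearman correlation of the difference with length was -0.38 at 1 h, 0.35 at 3 h and -0.24 at 6 h across 543 genes. Across 351 genes at 5 FPKM or more with under 50% of their sequence shared, it was -0.51, 0.40 and -0.30. Between normoxia libraries it was 0.06 for 3 h minus 1 h and -0.01 for 6 h minus 3 h over the 543 genes. Set against the normoxia library of 1 h, OGD+Oba at 1 h had a correlation with length of -0.26 and OGD at 1 h one of 0.23, across the 351 genes. The part that length has in the differences of single genes was not tested. With the linear trend on length removed, Ogt differed by -0.89 at 1 h and 0.60 at 3 h, Tet2 by -0.67 and 0.61, Ptbp2 by -1.05 and 0.51 and Far2 by -1.14 and 0.61, an alternative chosen after the data were seen.

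**Figure D5:**
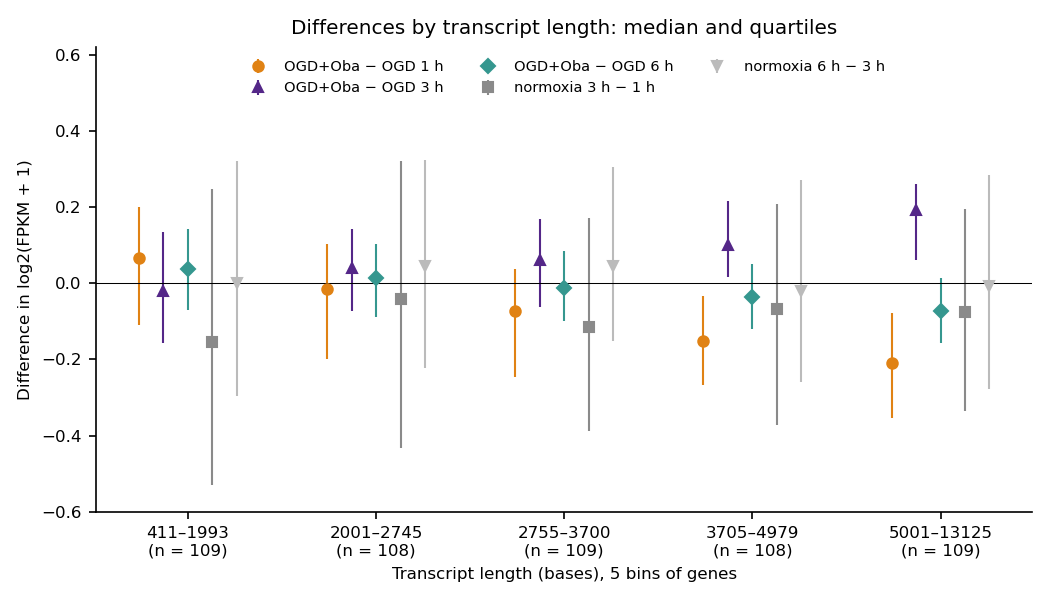
Difference in log2(FPKM + 1) (vertical axis) in 5 bins of genes by transcript length in bases (horizontal axis, with n), shown as medians with quartiles, for OGD+Oba minus OGD at 1, 3 and 6 h and for the pairs of normoxia libraries. The 1 h medians descend to -0.21 and the 3 h medians ascend to 0.19 in the bin of longest transcripts, and the normoxia medians follow no such order.

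Of 24 targets of HIF-1, 17 were tested, 0 were called by limma, 0 had an unadjusted p under 0.05 and 0 were 1.5-fold apart at any time, where 37 of all 544 genes were. Their differences ran from -0.24 to 0.28 at 1 h, from -0.32 to 0.42 at 3 h and from -0.11 to 0.16 at 6 h. Their median differences were -0.00, 0.05 and 0.02 at 1, 3 and 6 h, beside -0.08, 0.07 and -0.02 over all 544 genes. Hilpda, a lipid droplet protein that blocks fat breakdown, stood at 239, 1203 and 1835 FPKM in OGD+Oba, against 204, 1351 and 1682 FPKM in OGD, and at 273, 331 and 251 FPKM in normoxia. Both deprived arms were far above normoxia from 3 h on, and close to each other. Vegfa, the endothelial growth factor, stood at 15.5, 104 and 201 FPKM in OGD+Oba, against 18.5, 86.9 and 214 FPKM in OGD, and at 19.1, 7.01 and 7.74 FPKM in normoxia. The gaps between its deprived arms, of -0.24, 0.25 and -0.09, had no common sign. Bnip3, a mitochondrial receptor for mitophagy, differed by 0.20, 0.09 and 0.11 (limma 0.13 ± 0.06, adjusted p = 0.999), and Ero1l, an oxidase of the endoplasmic reticulum, by -0.15, 0.42 and -0.04.

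Of the 6 tested genes of glucose uptake and glycolysis 0 were above 0 at 1 h, 5 at 3 h and 1 at 6 h, against 181, 363 and 239 of all 544 genes, with medians of -0.10, 0.08 and -0.03. None of them was called by limma, as none was among all genes described. Slc2a1, the glucose transporter GLUT1 of the blood-brain barrier, stood at 129, 333 and 567 FPKM in OGD+Oba, against 129, 315 and 577 FPKM in OGD, and at 135, 108 and 71.2 FPKM in normoxia, with a limma difference of 0.02 ± 0.06 (95% interval -0.11 to 0.15). That interval is among the narrow ones, and leaves room for a common difference of about 0.15 on the log2(FPKM + 1) scale. Hk2, a hexokinase, differed by -0.19, 0.11 and -0.08, and Pfkl, a phosphofructokinase, by -0.04, 0.05 and -0.03. The widest differences of the list were those of the low genes Aldoc, an aldolase, at -0.13, -0.31 and -0.03, and Eno2, an enolase, at -0.32, 0.24 and 0.18. Arrdc4, the second arrestin that follows glucose, differed by 0.35, -0.01 and 0.15, and so did not take the sign of Txnip at 1 and 6 h.

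Among 12 tested immediate early and feedback genes, Fos stood out at 1 h. Fos encodes a subunit of AP-1 (chr12:85473890-85477274), and stood at 25.3, 22.2 and 45.4 FPKM in OGD+Oba, against 13.4, 25.4 and 42.5 FPKM in OGD, and at 106, 3.89 and 4.21 FPKM in normoxia. The 1 h value in OGD+Oba lay between those of OGD and normoxia, and the arms were close at the later times; its 1 h difference was 0.87 and its common difference 0.26 ± 0.18 (limma adjusted p = 0.999). The list had 0 calls and medians of 0.10, -0.01 and 0.04. At 1 h 8 of its 12 genes were above 0, against 181 of all 544 genes. The count over all genes depends on scaling, being 307 of 544 after the authors' scaling. Atf3, a stress-induced repressor, stood at 104 FPKM in OGD+Oba, against 79.4 FPKM in OGD and 224 FPKM in normoxia at 1 h. Dusp1, a phosphatase of MAP kinases, differed by -0.06, 0.09 and 0.06, Ier3 by 0.24, -0.17 and 0.13, Junb by 0.15, -0.24 and 0.03, and Egr1 by 0.24, -0.19 and 0.04.

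The inflammatory list, 11 tested genes with 0 calls and 1 unadjusted (Ccl2), had medians of -0.16, -0.10 and 0.05. Its 3 h median lay below that of all genes, with 3 of 11 genes above 0, against 363 of 544. Cxcl1, a neutrophil chemokine, stood at 9.44, 27.7 and 74.9 FPKM in OGD+Oba, against 10.7, 38.5 and 70.1 FPKM in OGD, and at 91.9, 13.8 and 14.9 FPKM in normoxia. Cxcl2, its close relative, stood at 3.01, 12.5 and 32.6 FPKM in OGD+Oba, against 3.21, 17.2 and 30.8 FPKM in OGD, and at 23.5, 2.28 and 3.36 FPKM in normoxia. For both chemokines the OGD+Oba library was the lower one at 3 h, by 0.46 and 0.43, and within 0.17 of OGD at 1 and 6 h on the log2(FPKM + 1) scale. Their transcripts are short, at 953 and 1859 bases, and the bin of shortest transcripts had a median of -0.02 at 3 h. Nfkbia, the inhibitor of NF-kB, differed by 0.16, -0.07 and -0.08, Irf1, an interferon regulatory factor, by -0.05, -0.10 and 0.07, and Icam1, a leukocyte adhesion receptor, by 0.15, -0.14 and 0.09.

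Stress and growth lists had 0 calls each by limma and no common direction. Ddit3, the transcription factor CHOP, stood at 28.1, 98.4 and 160.3 FPKM in OGD+Oba, against 25.7, 105 and 129 FPKM in OGD, and at 32.9, 29.9 and 24.8 FPKM in normoxia. Its 6 h difference of 0.31 was the highest of the 6 tested ATF4 targets at that time, and the list medians were 0.07, -0.01 and -0.04. Ddit4, an inhibitor of mTORC1, differed by 0.02, -0.24 and -0.10, and Ppp1r15a, a phosphatase subunit that ends the stress arrest of translation, by 0.45, 0.02 and -0.06. The 6 FOXO genes had medians of -0.04, 0.04 and -0.04. Of them, Sgk1, a kinase of growth factor signaling, stood at 484, 106 and 104 FPKM in OGD+Oba, against 521, 111 and 118 FPKM in OGD, and at 706, 404 and 423 FPKM in normoxia. Sgk1 was the lower in OGD+Oba at each time, by a common -0.12 ± 0.06 (limma, 95% interval -0.26 to 0.01). Depp1 differed by 0.09, -0.41 and 0.18 and Ccng2, a cyclin of growth arrest, by 0.04, 0.16 and 0.04. The 1 tested heat shock gene, Dnajb1, differed by 0.04, -0.02 and 0.17, and of the sterol genes 0 were tested.

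Genes of the barrier, of clot lysis and of cell mechanics lay close together in the deprived arms. Plat, tissue plasminogen activator, stood at 94.2, 101 and 91.9 FPKM in OGD+Oba, against 94.6, 98.3 and 87.3 FPKM in OGD, and at 129.5, 329 and 455 FPKM in normoxia, with a limma difference of 0.04 ± 0.06 (95% interval -0.11 to 0.18). Plat was thus near one level in all 6 deprived libraries, unlike Mmp10 of the same list. Of 16 junction genes 2 were tested: Cldn12, a claudin, differed by -0.31, 0.22 and -0.03, and Marveld2, the tricellulin of three-cell contacts, by -0.20, -0.21 and 0.32. The 3 tested targets of YAP, a regulator that senses tension, gave 0.05, 0.02 and 0.08 for Ankrd1, -0.06, -0.02 and 0.05 for Ccn2, and 0.04, 0.04 and -0.17 for Amotl2. Of the cell cycle genes, Aurka, a mitotic kinase, differed by 0.03, 0.02 and -0.02 and Cdkn1a, the cell cycle inhibitor p21, by 0.03, 0.13 and -0.01. Gabarapl1, an autophagy protein, differed by 0.10, -0.06 and 0.01, and Bcl2l11, the death-promoting protein BIM, by -0.50, 0.37 and -0.18.

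Histone genes gave the largest single differences, on low values and on sequence that copies share. Of the 8 histone genes above the floor, 7 were at least 1.5-fold apart at some time, against 37 of all 544 genes, and their median differences were -0.72, 0.09 and 0.12. Share of sequence was measured over runs of 31 bases, as the percent of those in the gene's transcripts that also lie in another gene: 4 of the 8 genes were under 50%, and their median at 1 h was -0.66. H2ac19, an H2A gene with 100% of its sequence shared, was listed at 0 in all 3 OGD+Oba libraries, against 3.50, 1.63 and 0 FPKM in OGD, and at 1.86, 1.68 and 3.60 FPKM in normoxia. H3c14, an H3 gene with 100% shared, was listed at 0 in all 3 OGD+Oba libraries, against 3.51, 0 and 3.12 FPKM in OGD, and at 3.07, 0 and 0 FPKM in normoxia. Hist1h2ao, an H2A gene with 93.8% shared, had the opposite order, at 1.94, 2.18 and 7.20 FPKM in OGD+Oba, against 0, 1.04 and 5.70 FPKM in OGD, and at 0.66, 0 and 0 FPKM in normoxia. A fold against a library listed at 0 is not given.

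The first 60 coding bases of both H2A genes are shown because near-identical copies could split their reads (GENCODE M21, GRCm38, 5′ to 3′): Hist1h2ao lies at chr13:21810467-21810526 on the + strand and H2ac19 at chr3:96240191-96240250 on the - strand. Capitals mark bases of H2ac19 that differ from Hist1h2ao.
Hist1h2ao: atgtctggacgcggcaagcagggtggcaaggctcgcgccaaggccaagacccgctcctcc
H2ac19: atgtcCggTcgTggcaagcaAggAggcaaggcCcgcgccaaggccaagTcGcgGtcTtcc
The stretches differ at 10 of 60 bases and the coding sequences at 33 of 390. Hist1h2ap has the same 390 coding bases as Hist1h2ao, and Hist2h2aa1 the same as H2ac19. The levels of these genes are uncertain, since reads from identical copies cannot be assigned to one of them.

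The largest differences of the other histone genes were smaller, and these genes had 3.72% to 94.2% of their sequence shared. A link of size to sharing was not tested. H4c9 (35.6% shared) stood at 19.4, 32.3 and 48.8 FPKM in OGD+Oba, against 33.6, 28.0 and 46.6 FPKM in OGD, and at 36.1, 33.8 and 10.2 FPKM in normoxia. H1f3 (3.72%) stood at 6.71, 6.22 and 9.32 FPKM in OGD+Oba, against 11.3, 7.41 and 8.83 FPKM in OGD, and at 9.28, 4.18 and 3.71 FPKM in normoxia. Both were lower in OGD+Oba at 1 h and near the OGD level at 6 h. H1f5 (3.93%) differed by -0.65, -0.75 and 0.18, from levels of 0.15, 0.42 and 3.49 FPKM in OGD+Oba against 0.80, 1.39 and 2.97 FPKM in OGD. H1f4 (34.7%) differed by -0.19, 0.56 and 0.48, and H3c10 (94.2%) by -1.01, 0.18 and 0.45. Zfp967, a zinc finger gene with 100% of its sequence shared, stood at 1.83, 2.22 and 2.06 FPKM in OGD+Oba, against 0.69, 0.56 and 1.74 FPKM in OGD, and at 0.03, 2.61 and 4.38 FPKM in normoxia (limma 0.65 ± 0.19, adjusted p = 0.470). It was higher in OGD+Oba at each time and is as uncertain as the histone genes.

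Further genes at the ends of a single time are given by their difference at that time. At 1 h, Sco2, a copper carrier of cytochrome oxidase with 89.7% of its sequence shared, differed by 0.59, and Smim19 by 0.56. At 3 h, Noxo1, an organiser of an NADPH oxidase, differed by -0.62, Clybl, a mitochondrial lyase, by -0.55, and Fam71f2 by 0.72. At 6 h, Hyal1, a hyaluronidase, differed by -0.48, Cfap53, a protein of cilia, by -0.41, and Dhrs9, a retinol dehydrogenase, by -0.40. On the upper side at 6 h, Trim68, a ubiquitin ligase, differed by 0.45 and Ttpa, the vitamin E transfer protein, by 0.41.

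Whether obacunone acted differently on genes that deprivation had placed higher or lower was described at 1 and 3 h only, since at 6 h both comparisons hold the same OGD library. At 1 h the 306 genes that the authors' deposited table lists as higher under OGD at 6 h had a median of -0.07, and the 238 genes listed as lower had one of -0.10. At 3 h the medians were 0.10 and 0.04. Both groups of genes took the direction of all genes at each time, without rescaling of libraries. The gap between their medians was 0.03 at 1 h and 0.06 at 3 h and was not tested.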

How the data were processed

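The data are RNA-seq values of 9 libraries, 1 for each of 9 groups. Per the submitters' processing notes, HISAT2 2.0.4 and the GRCm38 build were used; the quantifier is not given in the sources used here. The authors deposited 1 table of 675 genes in FPKM per library with their own log2 ratios, and it holds no gene under 2-fold between OGD and normoxia at 6 h. FPKM sums over the listed genes ran from 14198 (OGD 1 h) to 22631 (OGD+Oba 6 h) and are not depths.

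Values were taken as log2(FPKM + 1), which understates the change of low genes. The 580 genes whose mean over 9 libraries reached 1 FPKM were tested, and p-values adjusted by Benjamini-Hochberg over them with a threshold of 0.05. The test was limma 3.58.1 with trend in R 4.3.3 on 6 libraries, with time and obacunone as terms (2 residual and 5.50 prior degrees of freedom), checked on simulated data. Python 3.11.15 with pandas 2.3.3 made the other values. Single times were described by counts past 2-fold and 1.5-fold on the log2(FPKM + 1) scale. Sequence sharing and transcript length came from GENCODE M21, positions from RefSeq GRCm38.p6.

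The genes and lists were chosen with earlier results of these data known. Genes were named by a rule: the 5 highest and 5 lowest at each time, the 6 highest and 6 lowest means among those with 1 sign at all times, all past 2-fold, and up to 3 members of each list. H1f3, H4c9, Clcn6, Rictor, B3gat2, Ulbp1, Vegfa, Icam1, Atf3, Egr1, Cxcl2, Bcl2l11, Aldoc, Eno2 and the marker genes were named after their values were seen. A few named genes are not reported here.

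Alternatives were median-ratio scaling, a pseudocount of 0.1, a floor of 5 FPKM or none, limma without trend or robust, all 9 libraries, no time term, leaving out each time, leaving out predicted genes, and a limit of 1.5-fold. Added after seeing the data were the authors' scaling, dropping genes that share 50% or more of their 31-base words, and removal of the trend on transcript length.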

Additional observations from a re-analysis of the deposited data

Results flagged for a closer look

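5 genes with under 50% of their sequence shared passed 1.5-fold in one direction at 1 h and in the other at 3 h when OGD+Oba was set against OGD. With 1 library per group the difference between times was not tested. On the log2(FPKM + 1) scale, OGD+Oba minus OGD at 1, 3 and 6 h was -1.10, 0.75 and -0.084 for Ogt, -0.98, 0.81 and -0.21 for Tet2, and -0.64, 0.62 and 0.012 for B3gat2. It was -1.27, 0.70 and -0.017 for Far2 and -1.19, 0.61 and -0.043 for Ptbp2. In each the difference at 6 h was small beside those at the earlier times. Their transcripts measure 5384, 9179, 5655, 3480 and 3777 bases, in the order named, above the median of 3146 bases. With the trend on length removed the 1 h and 3 h values kept their signs and became smaller in size, at -0.42 and 0.47 for B3gat2. B3gat2 at both times and Ptbp2 at 3 h (0.51) then lay under 1.5-fold.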

How the results depend on the processing

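The gap between genes listed higher and lower and the correlations with transcript length kept their direction under each alternative run for them. The median sizes, which have no direction, ran from 0.14 to 0.19 at 1 h, from 0.11 to 0.15 at 3 h and from 0.09 to 0.12 at 6 h. Genes called by limma numbered 0 in each other setting, and 2 without 1 h, 2 without 3 h and 2 without 6 h, where the fits have 1 residual degree of freedom. Without 1 h and without 6 h the prior degrees of freedom were infinite. Those fits used a spread pooled over genes and not that of the gene itself. Without 3 h the prior degrees of freedom were 8.75. Counts past 2-fold moved more, being small. At a pseudocount of 0.1 they were 2 higher and 18 lower at 1 h, 4 and 2 at 3 h, and 1 higher at 6 h. At a floor of 5 FPKM they were 0 higher and 3 lower at 1 h, 0 and 0 at 3 h, and 0 lower at 6 h. Without genes that share sequence they were 0 higher and 5 lower at 1 h, 0 and 0 at 3 h, and 0 lower at 6 h. The authors' scaling gave 2 higher and 5 lower at 1 h, and median-ratio scaling gave 5 lower. At 1.5-fold they were 4 higher and 30 lower at 1 h, 8 higher and 3 lower at 3 h, and 1 higher and 2 lower at 6 h. The 16 single genes followed had been picked for the same sign at all times or for a low unadjusted p. That their common differences kept their sign in every setting was thus largely built in by the choice. Their size was not kept: H3c14 ran from -3.39 to -1.02, H2ac19 from -3.09 to -0.70, Hist1h2ao from 0.47 to 1.89, Mmp10 from 0.41 to 0.85 and Pced1b from -0.29 to -0.08. In fits without 1 time 6 of these values passed the threshold. The cause of each change was not tested, beyond the lower limit or fewer genes that the setting itself brings. The fit already pairs the libraries by time, and without the time term it called 0 genes; the labels give no replicate numbers for a further block. Depth is unknown, single libraries carry no replicate check, and differences of genes near the floor hang on the pseudocount.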
